A study of Mus musculus with 3 samples.

Results

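Pro-B cells were compared with common lymphoid progenitors (CLP), the sorted population that stands just before them on the path to the B lineage in mouse bone marrow. The members were every kept cell of the pro-B library and of the CLP library, and no cell was chosen by its expression. Cells were kept with 500 or more detected genes and at most 10% of their transcripts from mitochondrially encoded genes, which left 1106 of 1123 pro-B barcodes and 948 of 979 CLP barcodes. These are 2054 of the 2633 kept cells of the series. The other 579 cells are lymphoid-primed multipotent progenitors (LMPP), given here only for reference. The marrow of C57BL/6J mice gave all 3 populations, with no allele or agent named in the labels, and each was sorted and captured in droplets. CLP carried cKit, Sca1 and IL7Ra, either level of Flt3 (+/-) and no B220. Pro-B cells carried cKit, IL7Ra and B220, with no Sca1 or Flt3, and LMPP carried cKit, Sca1 and Flt3 with no IL7Ra or B220. How many animals gave each sort is not stated in the labels. Each population is 1 library, so no difference has a replicate check, no test was made, and the population cannot be told apart from its droplet run.

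As background, CLP are progenitors that can still give B cells, natural killer cells, some dendritic cells and, under Notch signals, T cells. Entry into the B lineage needs the E protein encoded by Tcf3 and the factors Ebf1 and Pax5, which switch on the chains of the early B cell receptor and shut off genes of other fates. Pro-B cells rearrange the immunoglobulin heavy chain locus, grow under IL-7, and make the surrogate light chain, a stand-in formed by the VpreB and lambda5 proteins that pairs with the first heavy chain. The immunoglobulin genes themselves were not analysed here.

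The libraries held 5967352 UMIs (unique molecular identifiers, tags that each mark 1 captured transcript) in CLP and 7367156 in pro-B. The median cell had 6258.5 UMIs in CLP and 5687.5 in pro-B. Levels are UMIs summed over a library and scaled to 1000000 (CPM). The assay counts the 3′ ends of transcripts, so a level does not depend on transcript length. In such a sum, fewer cells that make a transcript and less of it per cell cannot be told apart, so shares of cells are given after each cell was thinned to 2000 UMIs, in 908 CLP, 1070 pro-B and 573 LMPP cells. All intervals are exact 95% intervals that cover counting error only. Ribosomal protein genes took 41.9% of CLP UMIs and 29.6% of pro-B UMIs. The 2 libraries shared 2 barcode sequences. Both held transcripts of the Y-linked genes Ddx3y (41.2 CPM in CLP, 23.3 in pro-B) and Eif2s3y (37.9 and 52.8 CPM). Of the sort genes, Flt3 stood at 300.5 CPM in CLP and 5.16 in pro-B and Ly6a, which encodes Sca1, at 41.1 and 6.11. Il7r stood at 141 and 104 CPM, and Kit, on which both gates were positive, at 28.3 and 7.47.

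Of the 4 marker genes, the surrogate light chain pair was found in nearly every pro-B cell and few CLP cells, while Lef1 was found in a minority of pro-B cells and Cd34 in a minority of CLP cells. Igll1 (chromosome 16, 16860671 to 16863985 in GRCm38), which encodes lambda5, had a UMI in 98.7% of thinned pro-B cells, 2.09% of CLP cells and 0.175% of LMPP cells. Vpreb1, which lies 4417 bases away (16868403 to 16870843), had one in 99.3%, 5.29% and 0.873%. Both genes were seen together in 1050 of 1070 pro-B cells (98.1%, 97.1 to 98.9) and in 9 of 908 CLP cells (0.991%, 0.454 to 1.87). Only 1 pro-B cell had no UMI of Igll1, Vpreb1 or Lef1, whereas 849 CLP cells (93.5%) had none. Lef1, a DNA-binding partner of beta-catenin, was found in 40.9% of pro-B cells against 0.220% of CLP cells, from 237 and 2.01 CPM. Cd34, a surface protein of early progenitors, showed the reverse. It was found in 262 of 908 CLP cells (28.9%) and 362 of 573 LMPP cells (63.2%), and in 0 of 1070 pro-B cells. Taking 3 cells as the limit that a count of 0 allows, that is a share with a UMI of up to 0.280% (exact 95% upper bound 0.344%). Its level was 191 CPM in CLP, from 1140 UMIs, and 0 in pro-B, a drop of at least 469-fold. UMIs of Cd34 and of a surrogate light chain gene were found together in 11 CLP cells. Background RNA in the droplets was not estimated for this or any other share. The low CLP share of Igll1 was not spread evenly, since 120 of its 145 UMIs lay in 1 cluster of 25 early B-like cells. That cluster was drawn from the same values, and Igll1 led it and helped to name it, so this is description only.

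**Figure D1:**
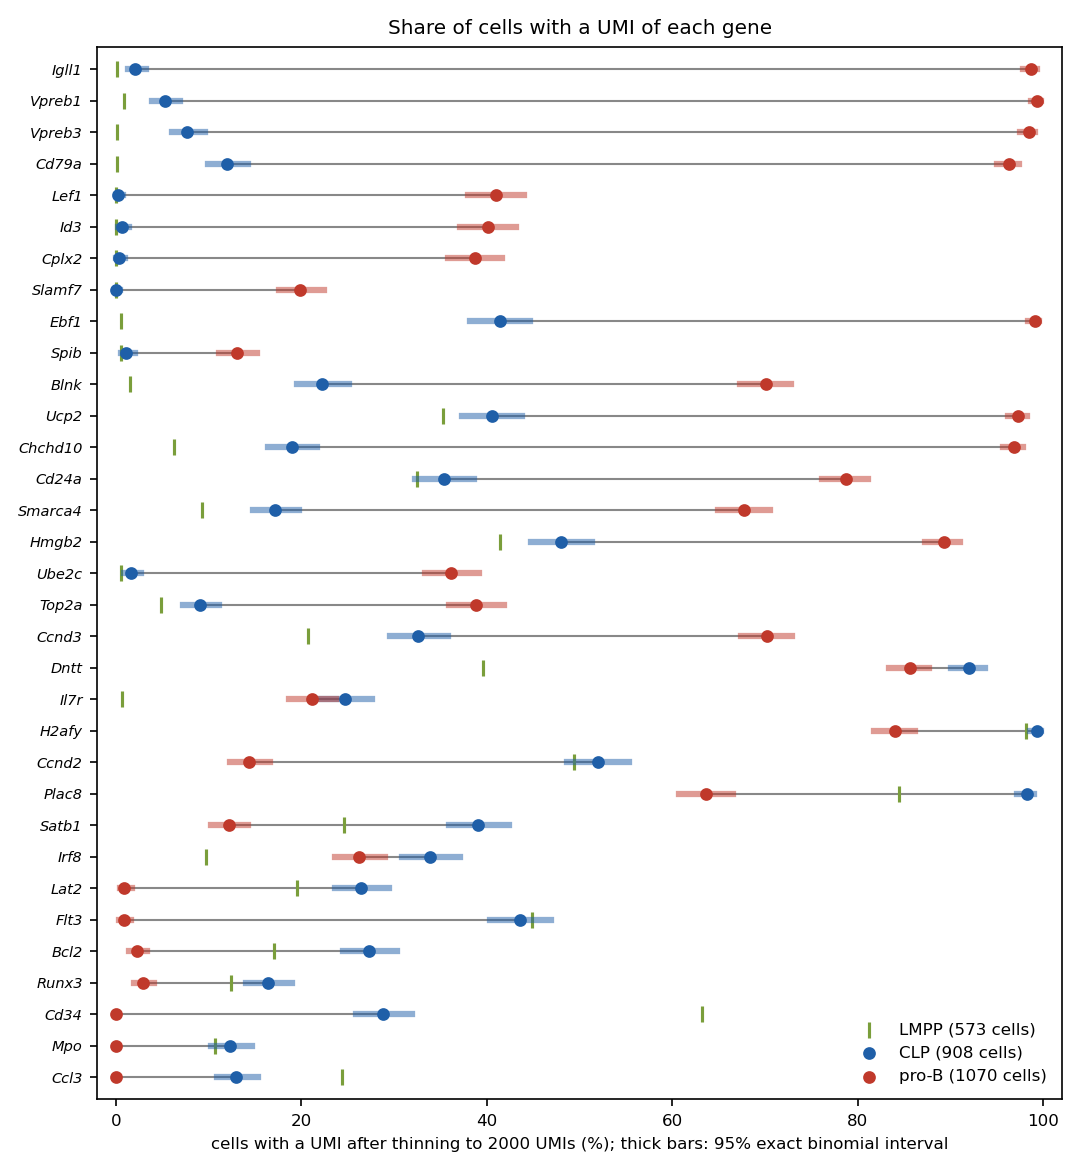
Share of thinned cells with a UMI of 33 genes (x axis, percent of cells) in CLP (blue points), pro-B (red points) and LMPP (green ticks), with exact binomial 95% intervals as thick bars for CLP and pro-B. Igll1, Vpreb1, Vpreb3 and Cd79a pass from under 13% of CLP cells to over 96% of pro-B cells, while Cd34, Mpo and Ccl3 have no UMI in pro-B.

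Across all genes measured, 3002 reached 50 CPM in either library. A gene was counted as higher or lower in pro-B when its levels differed at least 4-fold and the higher one was 50 CPM or more. By that rule 182 genes were higher (6.06% of those tested) and 118 lower (3.93%). At 8-fold the counts were 98 and 50, and at 32-fold 20 and 19. The counting interval lay wholly beyond 4-fold for 158 of the 182 and for 100 of the 118. Together the 182 genes took 0.785% of all UMIs in CLP and 6.91% in pro-B. In LMPP they took 0.527%. The 118 lower genes took 3.31% of UMIs in CLP, 0.468% in pro-B and 2.04% in LMPP. The split between the directions depends on the scale. The median log2 ratio of the tested genes was 0.34, and scaling to the total without mitochondrial and ribosomal protein genes lowers every log2 ratio by 0.31, to 151 higher and 145 lower genes (51.0% higher, against 60.7%). With 50 CPM also counted on that scale, the numbers were 180 and 251.

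The genes that stood higher in pro-B were mostly rare in CLP, and most were found in a minority of pro-B cells. Their median share of thinned cells was 2.37% in CLP and 21.5% in pro-B, and 133 of the 182 were found in under 5% of CLP cells. Only 26 were found in over 50% of pro-B cells. Few owed their level to a handful of cells, since the 5 richest cells held 10% or more of the pro-B UMIs for only 1 of them. The lower genes were in a median of 18.7% of CLP cells and 2.85% of pro-B cells, and 88 of the 118 were in under 5% of pro-B cells.

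**Figure D2:**
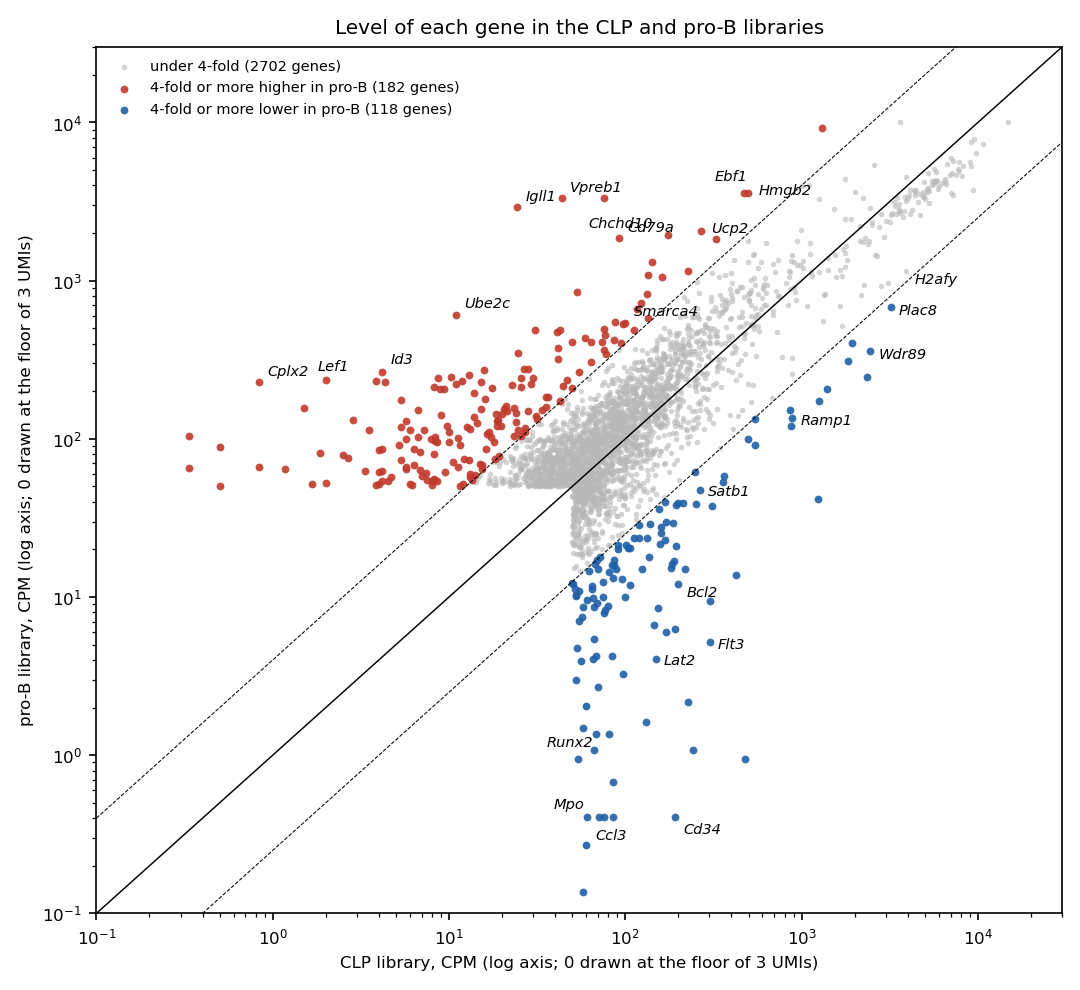
Level of each of the 3002 tested genes in the CLP library (x axis, CPM, log scale) and the pro-B library (y axis, CPM, log scale), with a solid line at equal levels and dashed lines at 4-fold. Red points are the 182 higher genes, blue points the 118 lower ones, and levels of 0 are drawn at the floor of 3 UMIs.

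The chains of the early B cell receptor rose as a group. All 6 measured genes of the surrogate light chain and the receptor passed 4-fold, with a median log2 ratio of 4.89, the highest of the 47 lists described, and their summed level went from 352 to 12531 CPM. Igll1 stood at 24.3 CPM in CLP and 2909 in pro-B (log2 6.90), Vpreb1 at 43.7 and 3316 (log2 6.24), and Vpreb3 at 75.7 and 3307 (log2 5.45). Cd79a and Cd79b, the signalling chains that later carry the receptor's message, stood at 92.2 and 1851 CPM (log2 4.33, 4.20 to 4.45) and at 53.0 and 842 CPM (log2 3.99, 3.83 to 4.16). Vpreb2, the near-identical copy of Vpreb1, was the least changed, at 63.5 and 306 CPM (log2 2.27, 2.11 to 2.43), and the counting may have divided transcripts between the copies. In CLP it stood above Vpreb1, and in pro-B far below it.

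The promoters of Igll1, Vpreb1, Vpreb3 and Cd79a are shown because these receptor genes were found in over 96% of pro-B cells and under 13% of CLP cells. Each run gives the 250 bases before the RefSeq start (GRCm38.p6), 5′ to 3′ on the gene's strand, at chr16:16863986-16864235 (minus strand), chr16:16869256-16869505 (minus strand), chr10:75948050-75948299 (plus strand) and chr7:24897247-24897496 (plus strand). Capitals mark the E-box CAGGTG on either strand, the site that E proteins such as the Tcf3 product bind.
Igll1: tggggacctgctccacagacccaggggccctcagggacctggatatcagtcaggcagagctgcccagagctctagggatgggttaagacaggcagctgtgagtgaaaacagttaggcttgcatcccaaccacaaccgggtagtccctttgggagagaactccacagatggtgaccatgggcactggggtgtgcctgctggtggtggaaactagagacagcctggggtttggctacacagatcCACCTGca
Vpreb1: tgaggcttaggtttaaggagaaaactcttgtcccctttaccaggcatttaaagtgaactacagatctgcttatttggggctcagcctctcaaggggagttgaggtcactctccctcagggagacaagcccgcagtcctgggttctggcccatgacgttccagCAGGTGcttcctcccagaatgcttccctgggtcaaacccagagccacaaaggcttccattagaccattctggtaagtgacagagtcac
Vpreb3: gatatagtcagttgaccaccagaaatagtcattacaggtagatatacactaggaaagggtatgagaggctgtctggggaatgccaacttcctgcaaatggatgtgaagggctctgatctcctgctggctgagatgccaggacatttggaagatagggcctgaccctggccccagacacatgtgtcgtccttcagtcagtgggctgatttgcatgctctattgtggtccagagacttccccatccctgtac
Cd79a: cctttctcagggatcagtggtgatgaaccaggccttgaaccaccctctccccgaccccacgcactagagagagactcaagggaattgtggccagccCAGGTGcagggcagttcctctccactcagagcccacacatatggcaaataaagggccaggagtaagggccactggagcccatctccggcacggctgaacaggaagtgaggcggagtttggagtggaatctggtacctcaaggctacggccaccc
RefSeq places the Vpreb1, Vpreb3 and Cd79a starts inside the spans that GENCODE gives these genes. The Vpreb3 span is 75943057 to 75949657, and the Cd79a span begins at 24897381. The Igll1, Vpreb1 and Cd79a windows held 1 match each, beginning 8, 88 and 154 bases before the start, and the Vpreb3 window held none. In the table of RefSeq promoters, 17.1% of 27025 genes held such a match in a window of this length, and 13.0% of the 2331 tested genes in the table did. Of 134 higher genes with a promoter there, 15 (11.2%) held one. Among the 66 genes with a promoter in the table that were higher both in all cells and in cells poor in cycle transcripts (described below), 11 (16.7%) did. Both shares lie near the background. A match is a run of letters and no evidence of binding.

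Genes outside the receptor also went from near absence in CLP to a share of pro-B cells like that of Lef1. Cplx2, a complexin that controls vesicle fusion, stood at 0.838 CPM in CLP and 227 in pro-B and was found in 0.330% and 38.7% of cells. Ptgr1, a prostaglandin reductase, stood at 3.85 and 232 CPM, and Arntl, a core factor of the circadian clock, at 8.71 and 241 CPM (log2 4.79, 4.39 to 5.22). Arntl was found in 1.76% of CLP cells and 37.1% of pro-B cells. Smaller shares of pro-B cells held the surface receptor gene Slamf7 (19.9%), the membrane adaptor gene Sit1 (15.1%), the ectoenzyme gene Bst1 (18.2%) and the kinase gene Sgk1 (16.4%), all found in under 0.4% of CLP cells. Slamf6, a relative of Slamf7, was already seen in 3.08% of CLP cells and reached 45.6% of pro-B cells, at 15.8 and 271 CPM. At higher levels, Ucp2, an inner membrane carrier of mitochondria, stood at 268 and 2055 CPM, and Chchd10, a mitochondrial protein gene, at 175 and 1956 CPM. Both were found in about all pro-B cells (97.3% and 96.8%). Mzb1, an endoplasmic reticulum chaperone of immunoglobulin chains, stood at 141 and 1313 CPM.

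In the gene lists a member counts as measured if the libraries together held 10 or more of its UMIs, and members that differed 2-fold or more are counted. Of 30 measured B lineage transcription factors 11 were higher and 5 lower, with a median of 0.12 (−0.19 on the scale without mitochondrial and ribosomal genes). Over all 11877 such genes the shares were 13.2% higher and 19.9% lower, and the median was −0.08. The 6 that passed 4-fold and 50 CPM were Lef1, Pou2af1 (8.21 against 211 CPM), which codes for a B cell coactivator of octamer factors, Spib (7.04 against 57.8), Ebf1 (472 against 3567), Pax5 (17.3 against 103) and Tcf3 (112 against 486). Ebf1 had a UMI in 41.4% of CLP cells and 99.1% of pro-B cells. In CLP 1706 of its 2815 UMIs lay in the early B-like cluster of 243 cells, which was drawn from the same values and named in part by Ebf1. Pax5 was sparse in both, at 4.30% and 18.9%. Of 34 measured Ikaros, ETS, Runx, Irf and Mef2 relatives, 5 were higher and 10 lower (median −0.28). Ikzf1, which encodes Ikaros, stood at 207 and 89.0 CPM, Mef2c at 494 and 222, and Irf8 at 461 and 153. Irf8 in CLP lay mostly in the plasmacytoid dendritic-like cluster, with 1616 of 2749 UMIs in 99 cells, and its log2 ratio was −0.52 in place of −1.59 once dendritic-like and innate-like CLP cells were left out.

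Several families had a member that stood higher in pro-B and a close relative that stood lower. Among the Runx factors and the Myc family, no member was higher. Id3 and Id2 both encode inhibitors of E proteins. Id3 stood at 4.19 CPM in CLP and 264 in pro-B, found in 0.661% and 40.1% of cells, and Id2 at 46.6 and 6.24 CPM, found in 6.39% and 0.935%. Among Runx factors, Runx2 stood at 68.5 and 1.36 CPM (log2 −5.66, −6.73 to −4.76) and Runx3 at 88.8 and 15.1 CPM, while Runx1 stood at 57.8 and 53.2 CPM (log2 −0.12, −0.33 to 0.09). The E26 family factor Spi1 stood at 108 and 46.4 CPM beside the rise of its relative Spib, and Irf4 stood at 4.02 and 33.0 CPM beside the lower Irf8. Lef1 rose, while Tcf7, its close relative, stood at 6.37 and 4.07 CPM (log2 −0.65, −1.39 to 0.08). Myc stood at 134 and 23.6 CPM, Mycn at 25.3 and 1.63, and Mycl had a log2 ratio of −5.34, so all 3 of that family were lower, while Myb stood at 183 and 170 CPM (log2 −0.11, −0.23 to 0.01). With mitochondrial and ribosomal genes left out of the total, Myb came to −0.42.

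**Figure D3:**
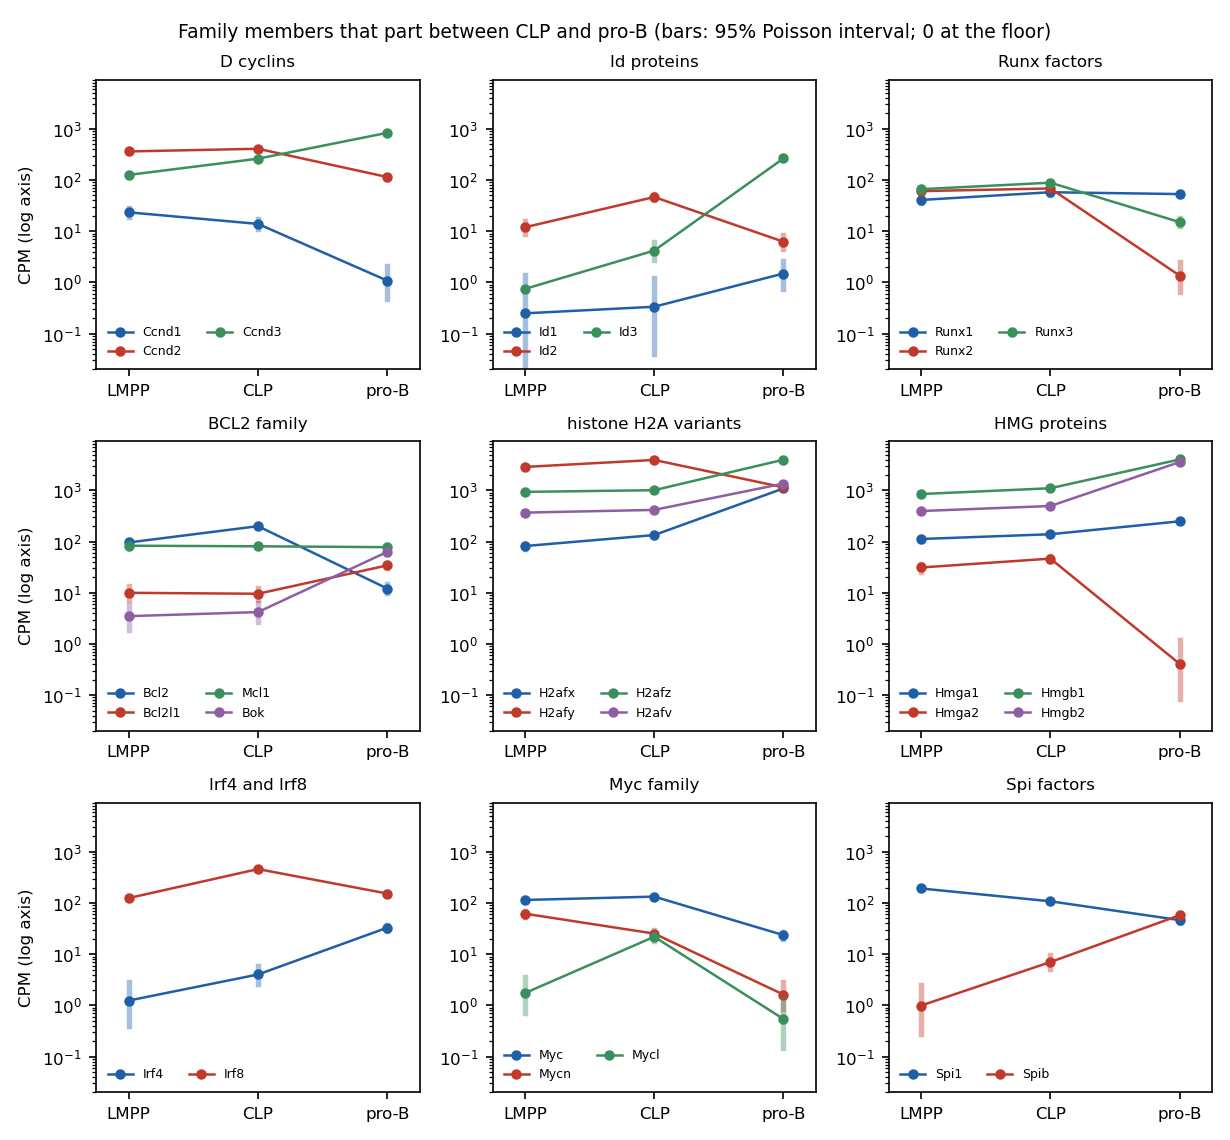
Levels of family members in LMPP, CLP and pro-B (y axis, CPM, log scale), with Poisson 95% intervals as pale bars and levels of 0 at the floor of 3 UMIs. Ccnd3, Id3, Bok, H2afx, Hmgb2, Irf4 and Spib are higher in pro-B than in CLP, while Ccnd2, Id2, Runx2, Bcl2, H2afy, Hmga2, Irf8, Myc and Spi1 are lower.

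The signalling chain behind the pre-B receptor did not move as one. Of 31 measured members 10 were higher and 5 lower (median 0.25, −0.07 on the scale without mitochondrial and ribosomal genes). Over all 11877 measured genes 13.2% were higher and 19.9% lower, so the lower members are no more than the share of all genes. Blnk, the adaptor that links the receptor to its phospholipase, stood at 134 CPM in CLP and 582 in pro-B, and its cells went from 22.2% to 70.1%. Prkcb, a protein kinase C used by B cells, stood at 10.1 and 95.6 CPM, and Siglecg, an inhibitory lectin outside the list, at 20.4 and 155. In contrast the kinases that start the chain were already present in CLP. Syk stood at 63.5 and 62.3 CPM (log2 −0.03, −0.23 to 0.17), Lyn at 35.5 and 42.9 and Btk at 33.0 and 55.8. The adaptor gene Lat2 fell furthest, from 149 to 4.07 CPM (log2 −5.19, −5.77 to −4.67), and its share from 26.4% to 0.935% of cells. It was spread over the CLP clusters, and its log2 ratio was −5.10 with dendritic-like and innate-like cells left out.

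Of 15 measured genes of V(D)J recombination 5 were higher by 2-fold and none lower (median 0.31, 0.00 on the scale without mitochondrial and ribosomal genes). Over all 11877 measured genes 13.2% were higher and 19.9% lower, so lying within 2-fold is not particular to this list. Dntt, the terminal transferase that adds bases at joins, stood at 1803 and 1354 CPM and was found in 92.0% and 85.6% of cells. Rag1 stood at 58.8 and 73.0 CPM (log2 0.31, 0.12 to 0.51) and Rag2 at 37.5 and 79.1 CPM (log2 1.08, 0.85 to 1.30), the 2 subunits of the recombinase. Hmgb1 and Hmgb2, DNA-bending cofactors of the recombinase that are also abundant in dividing cells, stood at 1100 and 4015 CPM and at 495 and 3575 CPM. Lig4, the ligase of end joining, stood at 1.34 and 27.1 CPM, and the Ku subunit gene Xrcc6 at 286 and 257 CPM.

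Genes of the cell cycle and histones made up 58 of the 182 higher genes. Of 66 measured genes of mitosis and the spindle, 65 were higher by 2-fold, and 39 of them passed 4-fold and 50 CPM, with a median log2 ratio of 2.93. Of 50 replication genes 28 were higher and none lower (median 1.21). Of 27 cyclins, cyclin-dependent kinases, their inhibitors and Cdc25 phosphatases, 16 were higher and 3 lower (median 2.07). Ube2c, which marks mitotic cyclins for destruction, stood at 10.9 CPM in CLP and 611 in pro-B and was found in 1.65% and 36.2% of cells. Ccna2 stood at 10.2 and 247 CPM, Ccnb1 at 8.88 and 208, and Cdk1, their partner kinase, at 11.9 and 232. The ribonucleotide reductase subunit gene Rrm2, needed for DNA synthesis, stood at 24.6 and 347 CPM. Subunits of the replicative helicase differed less, with Mcm5 at 60.8 and 145 CPM and Mcm6 at 148 and 165 CPM (log2 0.15, 0.03 to 0.28).

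The cyclins of the first gap phase parted. Ccnd2 stood at 408 CPM in CLP and 115 in pro-B and was found in 52.0% and 14.4% of cells, and Ccnd1 at 13.9 and 1.09 CPM. Ccnd3 went the other way, at 261 and 836 CPM and in 32.6% and 70.2% of cells. Cdk6 stood at 393 and 142 CPM beside Cdk4 at 402 and 445 (log2 0.15, 0.07 to 0.22). Inhibitors of these kinases were higher, with Cdkn2c at 12.6 and 119 CPM and Cdkn2d at 22.8 and 219.8. Cdc25b, a phosphatase that frees the mitotic kinase, stood at 1.51 and 157 CPM, whereas Cdc25a stood at 23.8 and 20.8 (log2 −0.20, −0.54 to 0.14). Within pro-B, Ccnd2 was highest in the cluster of 54 cells led by Mt1, Myc and Srm (460 CPM, against 27.4 to 106 in the other 4), given as a description because clusters were drawn from the same values.

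Cells poor in cycle transcripts were then compared alone, a choice made after the data were seen. They had at most 2 UMIs of 18 replication genes and at most 2 of 18 mitosis genes after thinning, which 676 CLP cells (74.4% of thinned cells) and 361 pro-B cells (33.7%) met. These pro-B cells were also shallow, with a median of 3107 UMIs against 8049 in the other pro-B cells. In CLP the medians were 6163 and 7601. The part of depth in the result was not tested. Of the 182 higher genes, 92 were also higher by the same rule among these cells. Of the other 90, 36 kept a 4-fold ratio and fell short only of 50 CPM, and 54 were under 4-fold. In all 183 genes were higher there, 91 of them not among the 182. Of the 58 that stand on a cyclin, replication, mitosis or histone list, 4 were also higher there (Ube2c, Birc5, Cdc25b and Cdkn2d), 22 kept 4-fold under 50 CPM, and 32 were under 4-fold, though 21 of the 182 were among the 36 genes used to pick the cells. Of the 40 on another list 31 were also higher, and of the 84 on no list 57 were.

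Genes that held in those cells included those of the B lineage. All 6 receptor chain genes were among them, with log2 ratios of 4.91 for Cd79a and 4.76 for Cd79b. Ebf1 had a ratio of 3.64, Pou2af1 4.96, Blnk 2.61, Smarca4 3.20, Ezh2 2.26, Ucp2 3.06, Chchd10 3.68 and Arntl 4.91. Those that fell under 4-fold included Top2a (2.70 in all cells, 0.72 here), Hmgb2 (2.85 and 1.53), the tubulin gene Tuba1b (2.49 and 0.01), and Bok (3.91 and 1.07), a BCL2 relative. Hist1h2ap (2.82 and −0.16), Sgol1 (2.97 and −0.25), Cenpk (2.02 and −0.63) and Ckap2l (2.74 and −0.06) changed sign. Ccna2 (4.60 and 3.96), Ccnb1 (4.55 and 3.50), Cdk1 (4.29 and 3.29), E2f2 (3.28 and 5.10) and Bcat1 (4.96 and 7.53) kept their ratio past 4-fold at under 50 CPM. Of the 118 lower genes 95 were also lower there. Among genes that passed the rule in these cells and not in all cells were Rag2 (1.08 and 2.14) and Cd37 (1.09 and 2.03), a tetraspanin gene, in the higher direction, and H2afy (−1.78 and −2.52) in the lower.

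**Figure D4:**
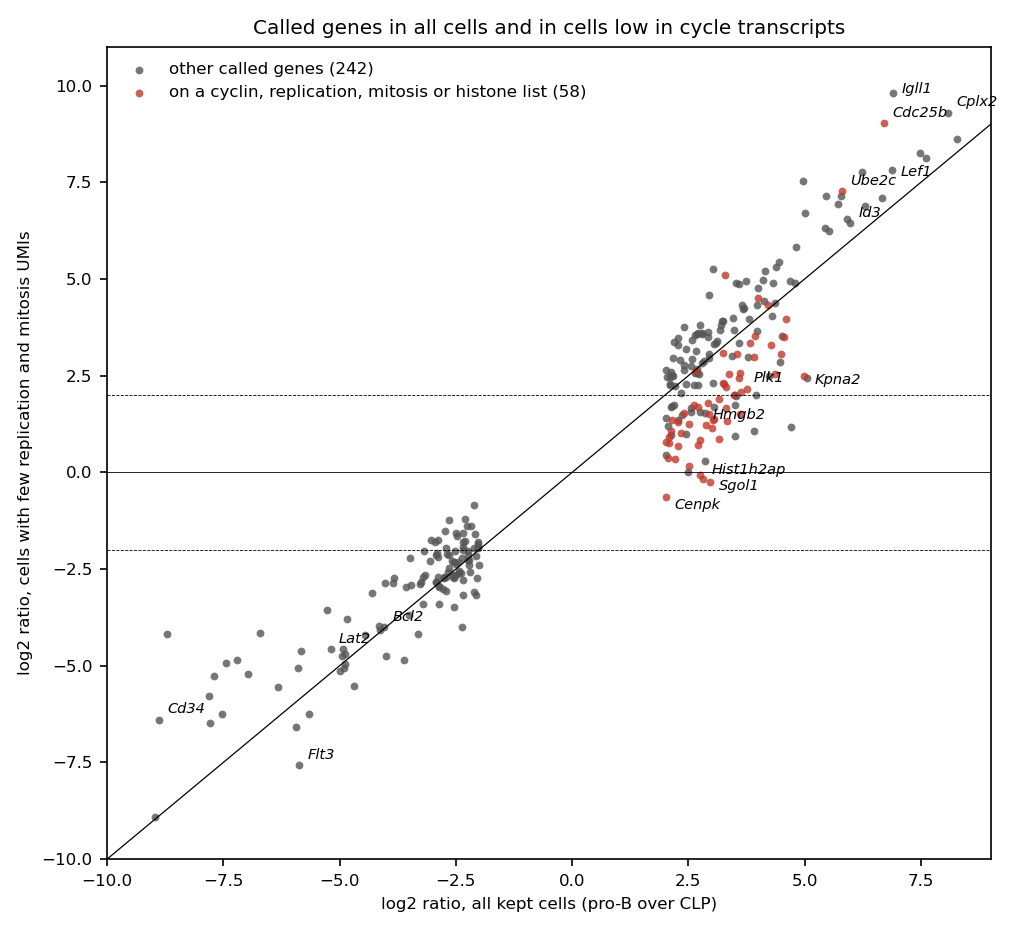
Log2 ratio of pro-B over CLP for the 300 genes that differed at least 4-fold, in all kept cells (x axis) and in cells with few replication and mitosis UMIs (y axis). The solid diagonal marks equal ratios and dashed lines mark 4-fold; genes on a cyclin, replication, mitosis or histone list (red) lie mostly below the diagonal where they are higher in pro-B, and 4 fall below 0.

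Promoters of 2 mitotic genes are shown because the genes of that block moved together. Capitals mark the CCAAT box (CCAAT) and the cell cycle homology region (TTTGAA) on either strand, letters known from promoters of genes that peak late in the cycle. The runs are the 250 bases before the RefSeq start at chr2:164769679-164769928 (plus strand) and chr13:100786487-100786736 (minus strand), GRCm38.p6.
Ube2c: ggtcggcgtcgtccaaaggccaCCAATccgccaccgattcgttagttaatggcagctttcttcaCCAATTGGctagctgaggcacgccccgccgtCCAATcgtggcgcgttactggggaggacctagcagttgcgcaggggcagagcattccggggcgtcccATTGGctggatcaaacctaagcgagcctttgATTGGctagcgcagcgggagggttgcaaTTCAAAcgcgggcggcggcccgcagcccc
Ccnb1: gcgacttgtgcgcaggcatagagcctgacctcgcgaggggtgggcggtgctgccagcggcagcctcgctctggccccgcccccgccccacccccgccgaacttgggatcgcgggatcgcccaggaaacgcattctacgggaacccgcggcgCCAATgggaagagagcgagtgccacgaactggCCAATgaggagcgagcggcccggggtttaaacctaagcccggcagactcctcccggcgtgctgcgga
The Ube2c window held 6 CCAAT matches, 2 of which overlap, and 1 TTTGAA match, and the Ccnb1 window held 2 CCAAT matches. The windows of Cdc25b and Plk1, scanned alike and not printed, held fewer, with 1 CCAAT match each and no TTTGAA match. Of the 55 mitosis genes with a promoter in the table, 37 (67.3%) held CCAAT, against 39.0% of 2331 tested genes and 34.5% of all 27025. Both motifs stood together in 16 of the 55 (29.1%), against 4.85% of the tested genes and 5.73% of all. Of the lower genes, none of 73 held both and 19 held CCAAT. The list was put together for its role in division, and these shares describe letters in a window, not binding.

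**Figure D5:**
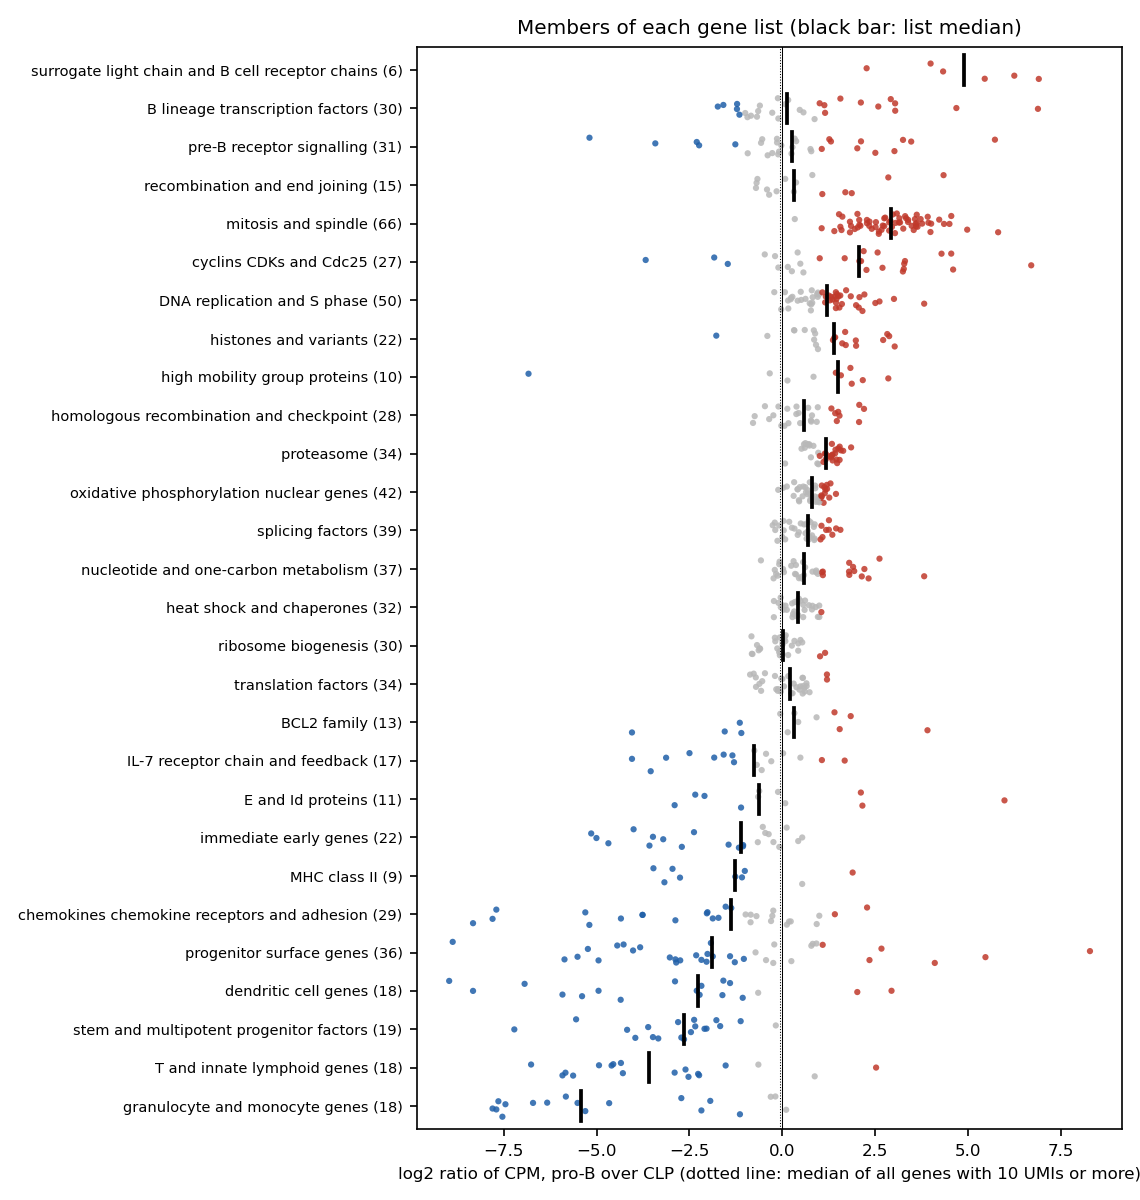
Log2 ratio of each measured member (points) of 28 gene lists, with the number measured in brackets, the list median as a black bar and the median of all genes with 10 or more UMIs as a dotted line. Red points are at least 2-fold higher and blue points at least 2-fold lower in pro-B; mitosis and proteasome genes lie almost wholly to the right, and stem, innate lymphoid and granulocyte genes to the left.

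Of the chromatin lists, high mobility group and histone genes had medians above 1 (0.50 and 0.14 in cells poor in cycle transcripts), while remodelling genes and the DNA and histone modifying enzymes had medians near 0. Among 10 measured high mobility group genes 6 were higher and 1 lower by 2-fold (median 1.51). Hmgn2 stood at 499 CPM in CLP and 1778 in pro-B, and Hmgn3 at 35.5 and 159, whereas Hmga2, a growth-linked member of fetal and stem cells, stood at 46.4 and 0.407 CPM (log2 −6.83, −9.12 to −5.27). The replacement histone genes H2afz and H2afx stood at 1007 and 3968 CPM and at 134 and 1089. H2afy, which encodes macroH2A1, a variant linked to silent chromatin, stood at 3926 and 1145 CPM and was found in 99.3% and 84.0% of cells. Among 24 measured remodelling genes 3 were higher and 4 lower (median 0.06), shares near those of all genes. Smarca4, the motor subunit of the SWI/SNF remodeller, stood at 99.9 and 543 CPM and went from 17.2% to 67.8% of cells, and Satb1, a chromatin organiser of lymphoid progenitors, at 264 and 47.5 CPM. Of 38 measured DNA methylation and histone modifier genes 8 were higher and 10 lower (median −0.07). Ezh2, the Polycomb methyltransferase, stood at 94.2 and 406 CPM, while Kdm6b, a demethylase that removes the same mark, stood at 57.5 and 8.69. The maintenance pair Dnmt1 (43.1 and 94.7 CPM) and Uhrf1 (69.7 and 189) was higher, and the de novo methyltransferase genes Dnmt3a (42.1 and 19.7) and Dnmt3b (30.5 and 8.69) were lower.

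Proteasome genes were higher together, though none passed 4-fold. Of 34 measured genes 21 were higher by 2-fold and none was lower than in CLP, with log2 ratios from 0.07 (Psme1, an activator induced by interferon) to 1.85 (Psmc2, an ATPase of the cap). Its median was 1.17, was 0.86 on the scale without mitochondrial and ribosomal genes, and was 1.05 in the cells poor in cycle transcripts. Nuclear genes of oxidative phosphorylation had 13 of 42 higher by 2-fold and none lower (median 0.81, 0.50 on the other scale), with Atp5k at 219 and 595 CPM and Ndufa4 at 540 and 1046. In the same cells the 12 tested mitochondrially encoded genes had a median of −0.57. Splicing genes had 9 of 39 higher (median 0.69), among them Hnrnpa3 at 369 and 1090 CPM. Nucleotide synthesis genes had 13 of 37 (median 0.58), among them Dck, a salvage kinase, at 46.9 and 235 CPM.

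The protein synthesis apparatus did not follow. Of 94 tested ribosomal protein genes 91 were lower than in CLP (median −0.46). Ribosome biogenesis genes had a median of 0.00 and translation factors of 0.20. The elongation factor gene Eef1a1 stood at 7769 and 5617 CPM. Chaperones had 1 of 32 higher by 2-fold, Ppia, a prolyl isomerase (2582 and 5349 CPM), a median of 0.41, and a median of 0.10 on the scale without mitochondrial and ribosomal genes. Translation factors came to −0.11 and ribosome biogenesis genes to −0.31 on that scale, so the sign of these medians depends on it.

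IL-7 is the growth factor of both populations, and several genes that its receptor drives or that restrain it were lower in pro-B. Of 17 measured genes 8 were lower and 2 higher (median −0.75). The receptor gene Il7r (log2 −0.44, −0.58 to −0.30), its kinase gene Jak1 (78.1 and 63.5 CPM) and Stat5a (14.6 and 14.8 CPM) lay within 2-fold. The feedback inhibitors Socs1 (41.6 and 4.75 CPM), Socs3 (14.2 and 1.22) and Cish (30.8 and 10.3) were lower, while Socs2 was higher (28.5 and 59.6). Pim1, a kinase induced by the same pathway, stood at 312 and 127 CPM. Of the survival genes, Bcl2 stood at 200 CPM in CLP and 12.1 in pro-B (log2 −4.05, −4.37 to −3.74) and was found in 27.3% and 2.24% of cells. Its CLP level was uneven across clusters, from 68.6 CPM in the 25 early B-like cells to 928 in the 17 innate-like cells, and its log2 ratio was −3.63 with dendritic-like and innate-like cells left out. Bcl2l1, a survival relative, stood at 9.55 and 34.2 CPM, Mcl1, another, at 80.8 and 77.6 (log2 −0.06, −0.23 to 0.12), and the death gene Bcl2l11 at 29.8 and 10.2.

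Genes of stem cells, progenitor surfaces and the granulocyte and monocyte lineage were mostly lower, which erythroid and megakaryocyte genes were not. Of 19 measured stem and multipotent factors 18 were lower by 2-fold and none higher (median −2.65), with Lmo2, a scaffold of stem cell factor complexes, at 194 and 38.3 CPM, Meis1 at 60.3 and 9.64, and Hoxa9, its homeobox partner, at 66.4 and 5.43. Of 36 measured progenitor surface genes 22 were lower and 6 higher (median −1.90, −0.98 in cells poor in cycle transcripts). Cd27 stood at 309 and 37.9 CPM against Cd24a at 228 and 1159. Of 18 measured granulocyte and monocyte genes 15 were lower and none higher (median −5.41). Mpo, the myeloperoxidase of granules, stood at 71.4 CPM in CLP, in 12.3% of cells, and went undetected in pro-B, a drop of at least 175-fold. Of 18 listed erythroid and megakaryocyte genes 7 were measured, with 4 higher and 2 lower (median 1.92). Car2, a carbonic anhydrase, stood at 43.6 and 165 CPM. With all deposited barcodes kept, the median was 4.45. The haemoglobin genes Hba-a1 and Hbb-bs then went from log2 2.21 and 5.11 to 7.13 and 8.86. Among kept cells Hbb-bs had at most 1 UMI per thinned pro-B cell, in 3.74% of them. Whether it came from outside the cells was not tested. The adaptor genes Tyrobp (228 and 2.17 CPM) and Fcer1g (131 and 1.63), which serve receptors of innate cells, fell alike. Of 29 measured chemokine and adhesion genes 15 were lower and 2 higher (median −1.37, −0.65 in cells poor in cycle transcripts). Ccl4 stood at 242 and 1.09 CPM, and Ccl3 at 84.6 CPM in CLP with none in pro-B.

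Markers of other cell types in the CLP library moved with these losses. Its 99 plasmacytoid dendritic-like and 17 natural killer or innate lymphoid-like cells made up 12.4% and 1.37% of CLP UMIs. The 8 plasmacytoid dendritic markers summed to 792 CPM in CLP, 75.6 in pro-B and 294 in LMPP, with Siglech and Ly6c2 at 0 in pro-B, and the 13 innate lymphoid markers to 285, 21.6 and 197. These sums are not confined to the named clusters. In CLP cells outside the dendritic-like cluster the dendritic markers still summed to 530 CPM (2642 inside it). Outside the innate-like cluster the innate markers summed to 221 CPM (4873 inside it). Of 18 measured dendritic cell genes 15 were lower by 2-fold (median −2.27, −2.02 without both clusters), and of 18 T and innate lymphoid genes 15 were (median −3.60, −2.37 without both). In cells poor in cycle transcripts these medians were −1.18 and −2.03. Without the clusters 110 of the 118 lower genes stayed so. Of the other 8, 4 kept a 4-fold ratio at under 50 CPM, among them Cd74 (log2 −2.96 with the clusters, −2.69 without) and Mpeg1 (−7.54 and −6.91), and 4 were under 4-fold, among them Ly6d (−2.86 and −1.95). Ly6d, a surface protein of B-biased CLP, had 2801 of its 5207 CLP UMIs in the dendritic-like cluster. Of the other marker sets, the 9 granulocyte or monocyte markers summed to 160.4 CPM in CLP and 82.7 in pro-B, with 6 at 0 there, and the 5 stem markers to 265 and 9.77. Lyz2, 1 of the 3 granulocyte or monocyte markers with a UMI in pro-B, was not lower (log2 0.10). It was found in 12.2% of CLP cells and 17.2% of pro-B cells. The 8 erythroid or megakaryocyte markers, which include both haemoglobin genes, summed to 5.87 and 24.7 CPM. The 4 T markers in the table summed to 5.53 and 10.2 CPM, so both sums were higher in pro-B. Members of the T set differed, since Cd3e and Cd3g had no UMI in pro-B and Cd3d had none in CLP.

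Other lower genes were found in most CLP cells and belong to no lineage list. Plac8 stood at 3203 and 684 CPM, in 98.2% of CLP cells and 63.6% of pro-B cells. Wdr89 stood at 2450 and 359 CPM, in 99.0% and 48.8%, and Ramp1, a partner of the calcitonin receptor family, at 886 and 135, in 82.5% and 21.2%. All 3 were also lower in cells poor in cycle transcripts, with log2 ratios of −2.28 for Plac8 and −3.07 for Ramp1. Of 22 measured genes of the immediate early response, known to be induced while tissue is dissociated, 13 were lower by 2-fold and none higher (median −1.11). The median of that list was −0.37 in cells poor in cycle transcripts. Fos stood at 194 and 21.0 CPM and Egr1 at 53.1 and 4.75. Tsc22d1 (log2 −2.64 in all cells, −1.24 in the cells poor in cycle transcripts), Junb (−2.71 and −1.96) and Cd27 (−3.03 and −1.74) were under 4-fold in the latter.

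Levels of the higher genes also differed among CLP clusters, described here with no test because the clusters were made from the same genes. The 182 higher genes took 0.450% of UMIs in the CLP cluster led by Cd34 and Hoxa9 (281 cells) and 0.783% in the early B-like cluster led by Vpreb2, Cd79a and Vpreb3 (243 cells). They took 1.48% in the dendritic-like cluster, 1.25% in the cluster of 42 cells led by mitotic genes, 2.24% in the 25 early B-like cells led by Igll1, and between 3.85% and 10.0% in the 5 pro-B clusters. Vpreb1 stood at 9.82 CPM, 65.1 CPM and 444 CPM in the Cd34-led and the 2 early B-like clusters of CLP and at 1513 to 6641 CPM in the pro-B clusters. Lef1 had 5 UMIs in the 25 cells (20.2 CPM) and 7 elsewhere in CLP, 4 of them in the 17 innate-like cells (48.9 CPM). Flt3 stood at 145 CPM in the 25 early B-like cells, between 314 CPM in the other early B-like cluster and at most 9.17 CPM in any pro-B cluster. Within pro-B, Igll1 was highest in the largest cluster, 456 cells with a median of 2918 UMIs (5440 CPM), and lowest in the 54 cells led by Mt1 and Myc (1401 CPM).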

How the data were processed

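Droplet 3′ single-cell RNA-seq gave 1 library each of CLP, pro-B cells and LMPP. The deposited files hold, for each gene and barcode, raw counts of UMIs. Per the submitters' processing notes, the tool was Cell Ranger and the genome build mm10. Its version, the annotation and the rule for calling barcodes were not given in the sources used here. Kept cells (500 genes, 10% mitochondrial UMIs) were summed per library to CPM. Intervals are exact 95% intervals, conditional for ratios and Clopper-Pearson for shares. A level of 0 was set to 3 UMIs for a lower bound on a fold. Genes tested had 50 CPM in either library. With 1 library a population there are no p-values. Clusters came from Leiden clustering of each library (scanpy 1.11.5), and scrublet calls were kept in the main values (16 CLP, 0 pro-B). Scripts used Python 3.11.15, NumPy 2.4.6, SciPy 1.17.1 and pandas 2.3.3, and were tested on simulated data.

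The members and gene lists were chosen with earlier results of these data known. Genes were named by this rule: the 20 highest and 20 lowest ratios and the 15 largest CPM differences each way, at 50 CPM or more and without immunoglobulin, mitochondrial, ribosomal protein and unnamed genes; list members that passed 4-fold; up to 4 other members of each list by level; and the sort and marker genes. Family members, receptor kinases, IL-7 feedback genes, recombination genes and gene list extremes outside that rule were named after their values were seen. So were further genes, among them Arntl, Sgk1, Bcat1, Tsc22d1 and Siglecg. Alternatives changed the scaling, cell filters, level and fold thresholds, cells and CLP clusters included. Results for some genes are not reported here.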

Additional observations from a re-analysis of the deposited data

How the results depend on the processing

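Scaling and thresholds set the counts more than the choice of cells did. On the total without mitochondrial and ribosomal genes, with 50 CPM counted on that scale, 251 genes were lower. At 10 CPM 749 genes passed 4-fold (353 higher, 396 lower), at 200 CPM 97 did (68 and 29), and 148 passed 8-fold (98 and 50). In cells poor in cycle transcripts 9 lists, against 16, had a median of 1 or more in either direction. There the replication median was −0.0089, Cenpk −0.63, Ckap2l −0.057, Hist1h2ap −0.16 and Sgol1 −0.25, all positive in all cells. Those cells were picked for few replication and mitosis UMIs, and 361 pro-B cells remained. No other alternative reversed a list median of 1 or more or a named gene that passed 4-fold, while some smaller medians changed sign with the scaling. Picking such cells by the whole lists left 9 pro-B cells and gave no value. The alternatives without mitochondrial and ribosomal genes at 50 CPM on that scale and with few cycle UMIs by 18 and 18 genes were chosen after seeing the data. No paired analysis was possible because each population is 1 library, and for the same reason no replicate could be left out. Counts of 50 CPM rest on 298 UMIs in CLP and 368 in pro-B, and intervals do not cover variation between animals, sorts or runs.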

Other observations

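Cytoskeletal genes were mostly higher in pro-B where they changed. Of 44 measured actin, thymosin and tubulin genes 16 were higher and 5 lower by 2-fold (median 0.52, 0.21 on the scale without mitochondrial and ribosomal genes). Gsn, which cuts actin filaments, stood at 13.9 CPM in CLP and 194 in pro-B, and held in cells poor in cycle transcripts (log2 3.80 and 3.96). Vim, the intermediate filament vimentin, stood at 77.6 and 343 CPM and was found in 11.8% and 43.6% of cells. Tubb4b, a tubulin, stood at 42.9 and 489 CPM, with log2 ratios of 3.51 in all cells and 2.01 in those poor in cycle transcripts.

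Of 21 measured glycolysis and pentose phosphate genes 7 were higher and 3 lower by 2-fold. Ldha, a lactate dehydrogenase subunit, stood at 211 and 429.7 CPM, and Ldhb, the other main subunit, at 29.2 and 1.76. Pkm stood at 163 and 347 CPM, and Hk2, a hexokinase, at 23.1 and 6.65. Of 9 measured Notch pathway genes 4 were lower and 1 higher. Notch1 stood at 157 and 21.7 CPM and Notch2 at 38.9 and 1.09, while Hes1, a common target, stood at 123 and 219.9 CPM (log2 0.84). Of 9 measured MHC class II genes 7 were lower and 1 higher. H2-DMa, which loads peptides, stood at 188 and 17.0 CPM and the surface chain H2-Ab1 at 33.3 and 124.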
